A study of Homo sapiens with 24 samples.

Results

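The APOBEC3 genes encode cytidine deaminases, and 7 of them (APOBEC3A, APOBEC3B, APOBEC3C, APOBEC3D, APOBEC3F, APOBEC3G and APOBEC3H) were followed by symbol through the 33113 genes of the count table, of which 19452 had a count in any sample. The family was chosen by measured values of these data, namely the difference between the untreated cell lines, so that difference is given below as a description without a test. HCT116 is a human colorectal carcinoma cell line. HCT116 oxpl-R is its oxaliplatin-resistant derivative, which survived repeated pulses of oxaliplatin (Oxpl) and which the study describes as a hypotetraploid population of varying chromosome number. Cells of both lines carried a doxycycline-inducible (Tet-On) adenovirus E1A transgene, including those of the untreated groups. Each line was left untreated, treated with 25 µM Oxpl for 24 h, given 0.5 µg/mL doxycycline to induce E1A, or given doxycycline 3 h before Oxpl, which makes 8 groups with 3 samples each, labelled as biological replicates. Doxycycline was not given to cells without the transgene in these samples, so effects of doxycycline and of E1A cannot be told apart, and both are called E1A here.

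APOBEC3 enzymes convert cytosine to uracil in single-stranded DNA, and some of them restrict retroviruses and retrotransposons by mutating their DNA during reverse transcription. APOBEC3A and APOBEC3B can enter the nucleus and are known as sources of C-to-T and C-to-G mutations in tumor genomes, whereas APOBEC3G and APOBEC3F are best known as antiviral factors of T cells. Several members are induced by interferon in immune cells, and APOBEC3B is also known to be raised by NF-κB signaling and in dividing tumor cells.

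The libraries held 24838095 to 37927720 estimated counts, and Pearson coefficients of log expression between samples of 1 group were 0.964 or higher. The epithelial markers KRT8, KRT18, KRT19, EPCAM and CDH1 were expressed, with 5301 to 16731 CPM (counts scaled to library size) summed over all 10 colon markers, while CEACAM5, LGR5 and CDX1 averaged 3.71, 1.67 and 0.542 counts per sample. Of 9 leukocyte markers, which matter here because leukocytes express several APOBEC3 genes, 8 were detected, at 1.58 to 10.8 CPM in sum. These sums were 4.92 to 10.8 CPM in HCT116 and 1.58 to 7.19 CPM in HCT116 oxpl-R cells. The markers did not move together: LCP1 was lower in HCT116 oxpl-R cells in the 3 treated conditions and CD68 with Oxpl and with E1A, while LYZ, at 0 to 0.234 CPM in untreated HCT116 samples, was at 1.28 to 1.48 CPM in untreated HCT116 oxpl-R samples. The part of other cell types in the APOBEC3 levels was not tested. PTPRC and CD3E, which define leukocytes and T cells, were at or below 0.37 and 0.17 CPM in every sample, and MS4A1 had no count. Fibroblast markers summed to 14.2 to 53.9 CPM over all samples. In such bulk RNA, more cells expressing a gene and more RNA per cell cannot be told apart.

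The 7 genes lie side by side on the plus strand of chromosome 22, over 151.327 kb of GRCh38 (chr22:38952741-39104067). In order, GENCODE places APOBEC3A at chr22:38952741-38963184, APOBEC3B at chr22:38982347-38992804, APOBEC3C at chr22:39014257-39020352, APOBEC3D at chr22:39021113-39033277, APOBEC3F at chr22:39040604-39055972, APOBEC3G at chr22:39077067-39087743 and APOBEC3H at chr22:39097224-39104067. The genes arose by duplication and their transcripts are partly alike, which matters for the counts because a read from a shared stretch has to be split between members by estimation. Of all windows of 31 bases in its reference transcript, APOBEC3B shared 45.5% with another member, APOBEC3A 30.8%, APOBEC3D 22.9%, APOBEC3G 17.9%, APOBEC3F 17% and APOBEC3C 6.85%. Over windows of 100 bases these shares were 20.5%, 13.9%, 9.23%, 7.30%, 5.96% and 0%. APOBEC3H shared no window of either length with another member, so these windows show no split between it and the family. Sharing with genes outside the family was not examined. Some APOBEC3H counts were not whole, such as 184.927 and 313.175 in HCT116 oxpl-R samples 1 and 3 with Oxpl. Values of the other members are uncertain to the extent of their shares. The antisense gene APOBEC3B-AS1, which overlaps APOBEC3B and whose reads could not be told from it without strand, had 1 count in 1 of the 24 samples, and the pseudogene APOBEC3AP1 had none. Whether the libraries kept strand was not examined, so this count does not show how many antisense reads were assigned to APOBEC3B. The ratio of the estimated counts to those scaled for transcript length, relative to the median gene of a sample, varied with the transcripts assigned, from 0.952 to 1.04 for APOBEC3B and APOBEC3C, 0.629 to 1.20 for APOBEC3F and 0.341 to 1.23 for APOBEC3D.

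Of the 7 members, only APOBEC3H had an entry in the RefSeq promoter table used here, and its promoter is shown because APOBEC3H had the largest log2FC between the lines among the members with E1A, and with E1A and Oxpl. It covers 250 bases before and 50 bases after the annotated start (chr22:39096994-39097293, GRCh38.p14, plus strand, 5′ to 3′).
APOBEC3H promoter: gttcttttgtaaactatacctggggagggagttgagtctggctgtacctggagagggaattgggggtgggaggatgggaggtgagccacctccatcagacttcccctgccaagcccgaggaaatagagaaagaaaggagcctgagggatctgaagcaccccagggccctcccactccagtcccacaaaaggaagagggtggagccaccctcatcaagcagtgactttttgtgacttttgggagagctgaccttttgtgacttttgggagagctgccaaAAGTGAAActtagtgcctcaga
The capitals mark the only match of the short interferon regulatory factor motif AANNGAAA, 28 to 35 bases after the start, a motif that 22.8% of 35116 promoters of this length held. On either strand there was no match of the fuller interferon-response core GAAANNGAAA (found in 3.57% of promoters), of the STAT motif TTCNNNGAA (7.66%), of the E2F motifs TTCCCGC (6.55%) and TTGGCGC (3.04%), of the cell cycle element TTTGAA (15.2%), of TATAAA (11.5%), or of the kappaB motif (11.3%). A match describes these letters only, and no binding was measured.

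APOBEC3C carried most of the family's RNA. Summed over the 7 members, the family reached 169 to 203 CPM in HCT116 cells without Oxpl, 280.2 to 402 CPM in HCT116 cells with Oxpl, 544 to 834 CPM in HCT116 oxpl-R cells without Oxpl and 799 to 1192 CPM in HCT116 oxpl-R cells with Oxpl. APOBEC3C made up 68.4% to 82.7% of these sums. Divided by the length of the reference transcript, which is the scale for comparing genes, untreated HCT116 cells held 51.8 ± 3.67 CPM per kb of APOBEC3C (mean ± SD, n = 3), 12.8 ± 0.742 of APOBEC3B, 6.70 ± 0.390 of APOBEC3F, 1.52 ± 0.151 of APOBEC3G, 0.754 ± 0.132 of APOBEC3H and 0.401 ± 0.186 of APOBEC3D. Untreated HCT116 oxpl-R cells held 237 ± 6.78 CPM per kb of APOBEC3C, 29.4 ± 2.89 of APOBEC3F, 15.1 ± 2.31 of APOBEC3B, 6.78 ± 2.42 of APOBEC3H, 4.48 ± 0.365 of APOBEC3G and 4.35 ± 0.850 of APOBEC3D. The order thus differed between the lines, with APOBEC3B above APOBEC3F in the former and below it in the latter, while the last 3 genes of the latter lay within each other's spread.

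APOBEC3C is a single-domain member found in many cell types. In untreated HCT116 cells its 3 samples had 133, 129 and 148 CPM, and in untreated HCT116 oxpl-R cells they had 635, 639 and 606 CPM. With E1A the values were 127, 138 and 121 CPM in HCT116 cells and 547, 525 and 405 CPM in HCT116 oxpl-R cells. Each HCT116 oxpl-R sample was thus far above each HCT116 sample of the same condition. With Oxpl, HCT116 cells had 332, 314 and 255 CPM and HCT116 oxpl-R cells had 797, 948 and 977 CPM. With both, HCT116 cells had 270.2, 227 and 224 CPM and HCT116 oxpl-R cells had 769.6, 743 and 656 CPM. The highest HCT116 sample, under Oxpl, therefore stayed below the lowest HCT116 oxpl-R sample of any condition.

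APOBEC3F is a double-domain antiretroviral member. Its samples had 29.7, 28.6 and 32 CPM in untreated HCT116 cells and 147, 124 and 126 CPM in untreated HCT116 oxpl-R cells. With E1A they had 32.5, 29.7 and 24.2 CPM and 117, 93.0 and 91.9 CPM, respectively. The lines were separated in both conditions. With Oxpl, HCT116 cells had 41.1, 44.4 and 53.7 CPM and HCT116 oxpl-R cells had 169, 179 and 151 CPM. With both, 1 HCT116 sample stood above its group (55.2 CPM against 30.2 and 32.2 CPM), and HCT116 oxpl-R cells had 127, 111 and 83.6 CPM. No overlap between the lines was seen in these conditions either.

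APOBEC3D, also a double-domain member, was far less abundant, at 14.4 to 119 counts per HCT116 sample. Untreated HCT116 cells had 1.31, 0.470 and 1.25 CPM and untreated HCT116 oxpl-R cells had 11.2, 13.0 and 8.71 CPM. With E1A the lines had 1.13, 1.53 and 1.88 CPM and 4.87, 8.58 and 7.93 CPM. All HCT116 oxpl-R samples were above all HCT116 samples of their condition, here and below. With Oxpl the lines had 2.83, 1.96 and 3.76 CPM and 11.1, 18.4 and 20.3 CPM. With both they had 2.45, 2.77 and 2.87 CPM and 13.3, 13.3 and 14.7 CPM.

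APOBEC3G, the best known restriction factor of HIV in T cells, was at 37.0 to 75.3 counts per HCT116 sample. It had 2.51, 2.52 and 2.11 CPM in untreated HCT116 cells and 7.54, 7.07 and 6.41 CPM in untreated HCT116 oxpl-R cells. With E1A the lines had 1.62, 1.32 and 1.88 CPM and 3.59, 4.41 and 7.36 CPM. The HCT116 oxpl-R samples were higher in both conditions, with 1 E1A sample above the other two. With Oxpl the lines had 1.94, 2.65 and 1.55 CPM and 5.04, 9.31 and 11.7 CPM. With both they had 1.30, 2.22 and 1.99 CPM and 6.31, 7.55 and 6.42 CPM, again without overlap.

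APOBEC3H, a single-domain antiviral member whose human variants differ in protein stability, had 14 to 58 counts per HCT116 sample. Untreated HCT116 cells had 0.636, 0.907 and 0.785 CPM and untreated HCT116 oxpl-R cells had 6.34, 4.87 and 9.72 CPM. With E1A the lines had 0.494, 0.694 and 0.538 CPM and 4.03, 4.33 and 8.41 CPM. In both conditions the HCT116 oxpl-R sample numbered 3 stood above the other two. With Oxpl the lines had 2.04, 1.49 and 1.55 CPM and 6.35, 5.89 and 12.6 CPM, and with both they had 1.16, 1.98 and 1.32 CPM and 5.69, 6.80 and 13.7 CPM. The sample numbered 3 was thus the highest for APOBEC3H in all 4 conditions of HCT116 oxpl-R cells, and without any 1 sample the line difference in the treated conditions still passed the test.

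APOBEC3B, a double-domain nuclear member, did not show the pattern of these 5 genes. It had 21.7, 20.1 and 19.4 CPM in untreated HCT116 cells and 26.6, 25.6 and 19.8 CPM in untreated HCT116 oxpl-R cells, which overlapped. With E1A the lines had 22.9, 22.7 and 19.3 CPM and 26.7, 24.1 and 23.1 CPM. With Oxpl they had 22.3, 19.7 and 20.7 CPM and 18.9, 13.1 and 19.0 CPM, so here every HCT116 oxpl-R sample was below every HCT116 sample, whereas with E1A every one was above. With both they had 19.6, 22.7 and 17.7 CPM and 17.4, 17.1 and 23.9 CPM. APOBEC3A, a single-domain nuclear member of myeloid cells, had no count in 17 of the 24 samples and 1 to 3 counts in the other 7, which is no more than the 3 counts that a count of 0 allows, so no fold is given for it.

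The first question was how the lines differed. In the untreated samples, which chose the family, log2FC values of HCT116 oxpl-R over HCT116 cells were 2.19 for APOBEC3C, 3.44 for APOBEC3D, 2.14 for APOBEC3F, 1.56 for APOBEC3G, 3.16 for APOBEC3H and 0.24 for APOBEC3B, and in 5 of the 7 members every HCT116 oxpl-R sample was above every HCT116 sample. Of all genes with a count, 17.5% had that pattern. This share was not computed for the other comparisons, so separation of samples in them is a description only. The same lines were then compared in the treated samples, which that choice did not use, by edgeR's quasi-likelihood test with Benjamini-Hochberg adjustment over 19452 genes. In each of the 3 treated conditions the same 5 of 7 members, APOBEC3C, APOBEC3D, APOBEC3F, APOBEC3G and APOBEC3H, were higher in HCT116 oxpl-R cells. The test called 13.7% of all genes higher in HCT116 oxpl-R cells with Oxpl, 6.69% with E1A and 10.3% with both. These shares are over all 19452 genes, including those with few counts. Over the 7 members the median log2FC was 2.09 with Oxpl, 1.94 with E1A and 1.59 with both, beside 0.09, −0.05 and 0.05 over the 11097 genes with a mean of at least 10 counts. The medians of the members include APOBEC3A, which has too few counts for a fold and does not meet that filter.

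With Oxpl, APOBEC3C had a log2FC of 1.60 ± 0.169 (SE), which is a 3.02-fold difference, at an edgeR adjusted p of 1.29e-08. APOBEC3D differed most there, by 2.54 ± 0.314 (5.80-fold, edgeR adjusted p = 2.22e-07). APOBEC3H followed at 2.28 ± 0.366 (4.87-fold, edgeR adjusted p = 1.39e-05), then APOBEC3G at 2.09 ± 0.307 and APOBEC3F at 1.84 ± 0.205. The intervals of these 5 genes overlapped, and no test between them was run. With E1A, APOBEC3H had the largest value of the family, 3.27 ± 0.402 (9.64-fold, edgeR adjusted p = 5.61e-07). APOBEC3C then had 1.94 ± 0.170 (3.83-fold), APOBEC3D 2.23 ± 0.321, APOBEC3F 1.80 ± 0.206 and APOBEC3G 1.67 ± 0.309. With both agents, APOBEC3H again led with 2.55 ± 0.370, and the smallest value was that of APOBEC3F, 1.45 ± 0.203 (2.73-fold, edgeR adjusted p = 3.61e-06). The largest edgeR adjusted p of these 15 differences was 0.000279, for APOBEC3G with E1A.

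APOBEC3B did not pass the test in any of these conditions. Its log2FC was −0.30 with Oxpl (95% confidence interval −0.70 to 0.11, edgeR adjusted p = 0.328), 0.19 with E1A (−0.22 to 0.59, adjusted p = 0.599) and −0.04 with both (−0.44 to 0.36, adjusted p = 1.00). These intervals leave out the differences of 1.45 and more that were fitted for the 5 genes above. They leave possible differences in either direction, from −0.70 to 0.11, −0.22 to 0.59 and −0.44 to 0.36, respectively. The sum over the family, which APOBEC3C dominates, differed by 1.59 ± 0.165 with Oxpl, 1.80 ± 0.166 with E1A and 1.52 ± 0.165 with both on the log2 scale.

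**Figure D1:**
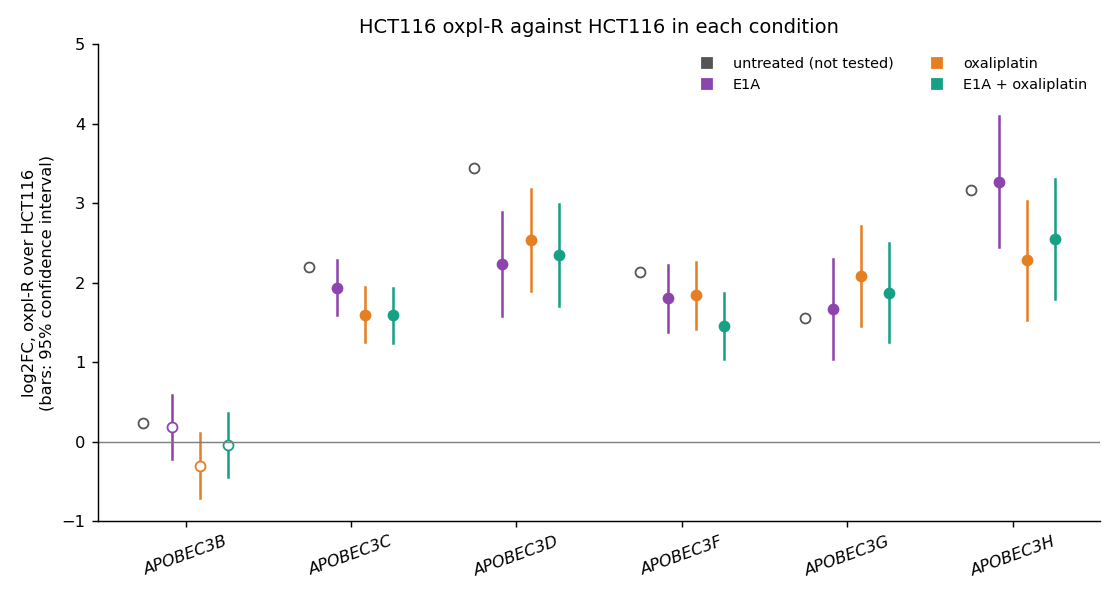
Fitted log2FC of HCT116 oxpl-R over HCT116 cells for 6 APOBEC3 genes in 4 conditions, on a linear log2 axis. Bars are 95% confidence intervals, filled circles passed the test, open circles did not, and the untreated points are open and without a bar because that difference was not tested. The 5 genes from APOBEC3C to APOBEC3H lay between 1.45 and 3.44, and APOBEC3B lay between −0.30 and 0.24.

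The second question was how the genes answered Oxpl, a platinum drug that forms DNA adducts. CDKN1A, which encodes the cell cycle inhibitor p21 and is known to be induced by DNA damage, rose with a log2FC of 3.70 in HCT116 and 2.87 in HCT116 oxpl-R cells. In HCT116 cells, 4 of the 7 APOBEC3 members rose with Oxpl, where 8.74% of all genes did. This comparison uses the untreated HCT116 samples, which helped to choose the family, so that count is not independent of the choice. APOBEC3C rose by 1.13 ± 0.167 on the log2 scale (2.19-fold, edgeR adjusted p = 2.1e-05). APOBEC3D rose by 1.5 ± 0.329 (2.83-fold, edgeR adjusted p = 0.00189). APOBEC3H rose by 1.12 ± 0.390 (2.17-fold, edgeR adjusted p = 0.0446) and APOBEC3F by 0.62 ± 0.201 (1.54-fold, edgeR adjusted p = 0.0292). In these 4 genes each treated sample was above each untreated sample, an order whose share over all genes was not computed. APOBEC3G, at −0.22 (−0.85 to 0.40), and APOBEC3B, at 0.03 (−0.37 to 0.44), did not pass the test. The calls of both APOBEC3F and APOBEC3H were lost, leaving 2 members, without HCT116 untreated replicate 1 or 2. That of APOBEC3H was also lost without HCT116 untreated replicate 3 or HCT116 Oxpl replicate 1, and with limma at a pseudocount of 1, and that of APOBEC3F without HCT116 Oxpl replicate 3. Under size factors of RLE in place of TMM the same number of members was called, while the share of all calls that were higher moved from 50.4% to 60.4%.

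In HCT116 oxpl-R cells, where the level without Oxpl was already higher, 1 of 7 members rose, where 3.1% of all genes did. This was APOBEC3C, by 0.53 ± 0.165 (1.45-fold, edgeR adjusted p = 0.0481), and the count was 0 without oxpl-R untreated replicate 1, 2 or 3 and without oxpl-R Oxpl replicate 2 or 3. APOBEC3D had 0.60 (0.00 to 1.20, edgeR adjusted p = 0.308), APOBEC3F 0.33 (−0.08 to 0.74), APOBEC3G 0.31 (−0.28 to 0.90) and APOBEC3H 0.24 (−0.45 to 0.94). APOBEC3B had −0.50 (−0.90 to −0.09, edgeR adjusted p = 0.161), with every Oxpl sample below every untreated one. The line comparison under Oxpl and these comparisons share the Oxpl samples, and the latter also use the untreated samples that chose the family. That choice favours low untreated values in HCT116 and high ones in HCT116 oxpl-R cells. It can thus raise the fitted response to Oxpl in the former and lower it in the latter.

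Whether Oxpl acted differently on the lines was fitted as an interaction term. This term subtracts the untreated line difference, which chose the family and was high for that reason, so values below 0 are no independent evidence of a weaker response. None of the 7 members passed it, where 2.78% of all genes did, and 2 had an unadjusted p below 0.05. For APOBEC3C the log2FC was 0.60 lower in HCT116 oxpl-R than in HCT116 cells (interval of the difference −1.07 to −0.12, edgeR adjusted p = 0.186), and for APOBEC3D it was 0.90 lower (−1.80 to −0.01, edgeR adjusted p = 0.315). For APOBEC3H the difference was −0.88 (−1.93 to 0.18) and for APOBEC3B −0.53 (−1.11 to 0.04). APOBEC3C passed, making 1 of 7, with DESeq2, with genes kept by filterByExpr, and without HCT116 Oxpl replicate 3.

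With E1A present, Oxpl raised 2 of the 7 members in HCT116 cells, where 3.4% of all genes rose. APOBEC3C rose by 0.90 ± 0.166 (1.87-fold, edgeR adjusted p = 0.000694) and APOBEC3H by 1.36 ± 0.406 (2.57-fold, edgeR adjusted p = 0.0345). APOBEC3D had 0.83 (0.18 to 1.49) and APOBEC3F 0.44 (0.03 to 0.85), and neither passed the test. The call of APOBEC3H was lost, leaving 1 member, without HCT116 E1A replicate 1, 2 or 3 and without replicate 2 of the HCT116 samples with both. With both limma fits and with edgeR on the second table APOBEC3H also lost its call while APOBEC3F gained one, so that 2 members were called there too, but not the same ones. RLE size factors moved the share of all calls that were higher from 42.1% to 59.5%, with 2 members still called. In HCT116 oxpl-R cells with E1A none of the 7 members passed, where 1.7% of all genes were called higher, and 2 had an unadjusted p below 0.05. APOBEC3C had 0.55 (0.22 to 0.89, edgeR adjusted p = 0.0681) and APOBEC3D 0.95 (0.35 to 1.55, edgeR adjusted p = 0.0866), and in both genes the samples did not overlap. Samples of these 2 groups deviated together by replicate number, and with the replicate number as a block 1 member passed, APOBEC3C. The interaction of line and Oxpl with E1A was passed by none of the 7 with edgeR or DESeq2, where 0.195% of all genes passed it, and 0 members had an unadjusted p below 0.05.

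The third question was whether E1A changed the genes. E1A is an adenovirus protein that binds the RB family and releases E2F. Its own RNA was not analysed here, and of 18 E2F targets 14 rose with E1A under Oxpl in HCT116 oxpl-R cells, while none passed in the other 3 comparisons of E1A. None of the 7 APOBEC3 members passed the test for E1A in HCT116 cells (0.432% of all genes passed), in HCT116 oxpl-R cells (0.226%), in HCT116 cells with Oxpl (0.0874%) or in HCT116 oxpl-R cells with Oxpl (1.39%), and 0, 2, 0 and 1 of them had an unadjusted p below 0.05. DESeq2 and the other tools run also called 0 members in these 4 comparisons. In untreated HCT116 oxpl-R cells, APOBEC3C had a log2FC of −0.35 with E1A (−0.68 to −0.01, edgeR adjusted p = 0.952) and APOBEC3D one of −0.62 (−1.22 to −0.02, edgeR adjusted p = 0.952), with every E1A sample below every untreated sample in both genes. APOBEC3F, at −0.40 (−0.80 to 0.01), had the same order of samples. The share of all genes with that order was not computed, and the comparisons of E1A without Oxpl use the untreated samples that chose the family. APOBEC3F had −0.63 under Oxpl in these cells (−1.04 to −0.23, edgeR adjusted p = 0.136), where the samples did not overlap either. APOBEC3B lay between −0.06 and 0.20 in all 4 comparisons, with bounds of −0.47 and 0.60. The interaction of line and E1A, which without Oxpl also subtracts the untreated difference that chose the family, was passed by none of the 7 members without Oxpl (0.0103% of all genes) and none with Oxpl (0.134% of all genes), and DESeq2 called 0 in both. APOBEC3D, at −1.20 (−2.12 to −0.29, edgeR adjusted p = 1.00) without Oxpl, was the 1 member whose unadjusted p was below 0.05, and with Oxpl 0 members were.

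**Figure D2:**
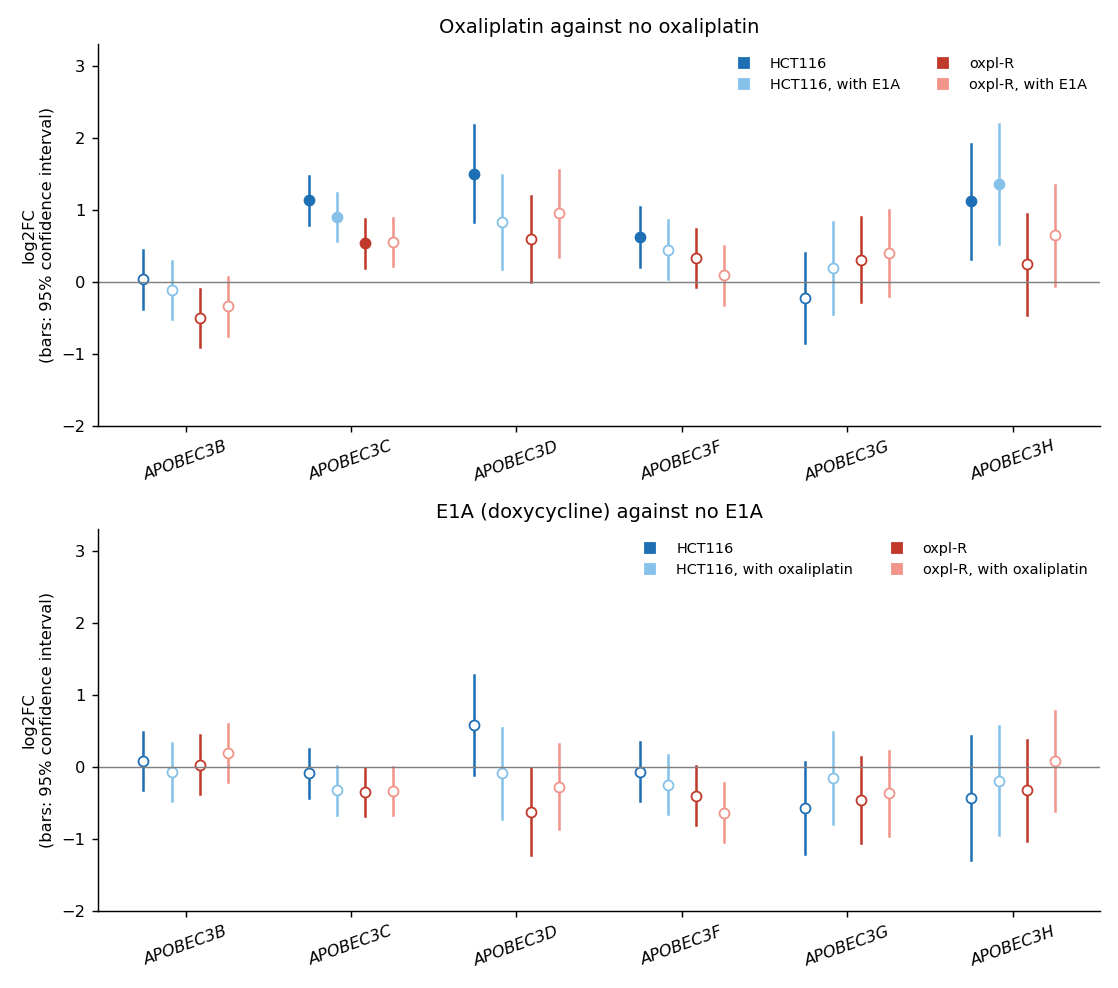
Fitted log2FC of 6 APOBEC3 genes for Oxpl against no Oxpl (upper panel) and for E1A against no E1A (lower panel) in both lines, with bars for 95% confidence intervals. Filled circles passed the test and open circles did not. In the upper panel 7 circles are filled, 6 of them in HCT116 cells, and in the lower panel none is. The comparisons of Oxpl without E1A use the untreated samples that chose the family, so these counts do not measure a difference in response between the lines. No member passed the interaction of line and Oxpl in the main fit, with or without E1A.

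The members' levels were also compared with each other across the 24 samples. On log2 CPM, the Pearson coefficients among APOBEC3C, APOBEC3D, APOBEC3F, APOBEC3G and APOBEC3H were 0.86 to 0.96, and those of APOBEC3B with these 5 genes were −0.15 to −0.01. The samples fall into the 2 lines and share libraries, so these values describe the order of the groups more than the samples within them. Among all genes with a mean of at least 10 counts, the gene most like APOBEC3C was KLK6, a secreted kallikrein protease (0.985), followed by SERINC2, LY6D and FXYD3, and then ICAM1, an adhesion receptor (0.976). The most similar gene was CYP4F12, a cytochrome P450, for APOBEC3D (0.967), MUC13, a membrane mucin, for APOBEC3F (0.980), KDELR3, a retrieval receptor of the secretory pathway, for APOBEC3G (0.963) and SERPINB1, an inhibitor of neutrophil proteases, for APOBEC3H (0.966). For APOBEC3B it was POC1A, a centriole protein, at 0.811, followed by KIF20A, a kinesin of cytokinesis (0.735), and CDC45, a component of the replicative helicase (0.724).

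The genes next to the cluster were examined because HCT116 oxpl-R cells differ in chromosome number. Of the 12 measured genes on each side, the median log2FC between the lines was 0.09 with Oxpl, 0.14 with E1A and 0.06 with both, and over 276 measured genes of chromosome 22 it was −0.13, −0.11 and −0.14. With Oxpl 6 of the 24 neighbours were higher and 4 lower in resistant cells, with E1A 3 and 1, and with both 5 and 2. Of all genes, 13.7% were higher and 12% lower with Oxpl, 6.69% and 7.75% with E1A, and 10.3% and 8.92% with both. The neighbours had a mean of at least 10 counts, as did only 11097 of the 19452 genes behind these shares. The shares are therefore not like for like, and the share among genes passing that filter was not computed. The nearest gene before the cluster, CBX6, a Polycomb protein 80492 bases away, had log2FC values of −0.30, −0.20 and −0.52. The nearest after it, CBX7, another Polycomb protein 16100 bases away, had 0.66, 0.78 and 0.39 and passed with Oxpl and with E1A. KDELR3, 469294 bases before the cluster, was higher in all 3 conditions, with 2.00, 1.60 and 1.93, and it is also the gene most like APOBEC3G in its pattern. Over the 24 neighbours the values ran from −1.04 to 2.00 with Oxpl, −0.73 to 2.67 with E1A and −0.94 to 1.93 with both. The study's karyotyping reported 5 copies of chromosome 22 in HCT116 oxpl-R cells, and listed it among the chromosomes whose copy number varied between cells. Copy number of this region was not analysed here, and its part in these values was not tested.

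Genes around the family's biology were counted in lists. The shares of all genes set beside the lists are over 19452 genes with any count, of which 11097 had a mean of at least 10. Lists of mostly expressed genes are thus not matched to these shares in level. Of the 6 relatives tested, APOBEC1, APOBEC2 and APOBEC4 averaged at most 1.21 counts per sample. CDA, a cytidine deaminase of free nucleosides, was higher in HCT116 oxpl-R cells with Oxpl, with E1A and with both (log2FC 0.72, 1.25 and 0.92), and it rose with Oxpl in HCT116 cells (1.10). ADAR, an adenosine deaminase of double-stranded RNA, was lower in HCT116 oxpl-R cells in these conditions (−0.65, −0.84 and −0.71).

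Interferon-stimulated genes included more called lower than called higher in the resistant line. Of 41 such genes, 2 were higher and 11 lower in resistant cells with Oxpl, 2 and 10 with E1A, and 2 and 11 with both. Of all genes, 13.7% were higher and 12% lower with Oxpl, 6.69% and 7.75% with E1A, and 10.3% and 8.92% with both. The median log2FC of the 41 genes was −0.09, −0.25 and −0.53. IFITM3, which blocks the entry of enveloped viruses, had −1.55, −1.07 and −1.11, OAS3, a sensor of double-stranded RNA, had −2.10, −0.68 and −1.01, and BST2, which tethers budding viruses, had −3.19, −2.28 and −3.03, all called lower. With Oxpl in HCT116 cells 5 of the 41 rose and 2 fell, beside 8.74% and 8.61% of all genes. ISG15, a ubiquitin-like modifier, rose by 1.36. With Oxpl in HCT116 oxpl-R cells 3 of the 41 rose and 2 fell, beside 3.1% and 3.01% of all genes.

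Of 28 known or proposed regulators of APOBEC3 genes, 2 were higher and 11 lower in resistant cells with Oxpl, 1 and 7 with E1A, and 1 and 7 with both, beside 13.7% and 12% of all genes with Oxpl, 6.69% and 7.75% with E1A, and 10.3% and 8.92% with both. NFKB1, a subunit of NF-κB, was lower with E1A and with both (−1.49 and −1.21), as was JAK1, a kinase of interferon signaling (−1.15 and −0.66). MYBL2, which drives cell cycle genes, was lower with Oxpl (−2.60), and E2F1 was lower with Oxpl (−2.45). With Oxpl in HCT116 cells 5 of the 28 rose and 9 fell, beside 8.74% and 8.61% of all genes, and those that rose included NFKB2 (0.84), CEBPB (0.67) and IRF3 (0.76). With Oxpl in HCT116 oxpl-R cells 1 rose and 5 fell, beside 3.1% and 3.01% of all genes, among them MYBL2 (−1.96) and E2F1 (−2.13). Of 13 tested genes that act on uracil and abasic sites, the products of deamination, 2 were higher and 3 lower in resistant cells with Oxpl, 1 and 3 with E1A, and 1 and 3 with both. These counts stand beside the same shares of all genes, 13.7% higher and 12% lower with Oxpl, 6.69% and 7.75% with E1A, and 10.3% and 8.92% with both. POLB, which fills the gap after base removal, was higher (1.49, 0.71 and 1.06), and LIG1, which seals nicks, was lower (−1.60, −0.66 and −1.11). Of 14 tested sensors of foreign nucleic acid and restriction factors, 2 were higher and 3 lower with Oxpl, 1 and 2 with E1A, and 1 and 3 with both. Of all genes, 13.7% were higher and 12% lower with Oxpl, 6.69% and 7.75% with E1A, and 10.3% and 8.92% with both. With Oxpl and with E1A, the shares of higher genes in this list were thus near those of all genes. In the second table, TRIM5, which recognizes retroviral capsids, was higher with Oxpl (1.48) and with both (1.25), and TREX1, an exonuclease of cytosolic DNA, was lower in these conditions (−2.32 and −0.69).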

How the data were processed

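RNA-seq was done on 8 groups of 3 samples. The authors trimmed reads with Trimmomatic, quantified them with Salmon 1.6.0 against GENCODE release 47 (GRCh38) and summed transcripts to genes with tximport. The deposited count table holds estimated counts, of which 15.9% to 30.4% per sample were not whole. The second deposited table is named as TPM but holds estimated counts scaled for transcript length (28004261 to 42613322 per sample), so it was treated as estimated counts too. Genes late in the alphabet (TRIM5, TREX1 and others) were taken from it, and tested on it alone over 22833 genes. Each table ended in an incomplete row, which was dropped, and genes beyond it were not analysed here.

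Estimated counts were rounded and fitted with edgeR 4.0.16 (R 4.3.3; TMM, quasi-likelihood, group as the only term, all 24 samples, 19452 genes with a count), with Benjamini-Hochberg adjustment and a threshold of 0.05. CPM were computed on the TMM-scaled totals. Fold changes, their standard errors and 95% intervals come from this fit. Alternatives used DESeq2 1.42.0, limma 3.58.1 on log2(value + 1) and log2(value + 0.1), RLE size factors, filterByExpr, a replicate block, only the groups compared, edgeR on the second table, and each sample left out. Positions were from GENCODE release 44, joined by symbol, and figures were drawn with matplotlib 3.10.9. The scripts were tested on simulated data. The 7 members and the gene lists were chosen with earlier results of these data known. From each list, at most 6 genes passing the test in a comparison, those with the highest mean count, were named, and results of some list genes are not reported here. Neighbours were the 12 nearest protein-coding genes on each side with a mean of at least 10 counts, and genes of similar pattern were the 5 with the highest Pearson coefficient of log2(CPM + 1).

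Samples with the same number deviated together (all 3 coefficients above 0.1) in 2 of 12 two-group comparisons: the line difference under Oxpl (0.141, 0.188 and 0.253) and Oxpl with E1A in HCT116 oxpl-R cells (0.419, 0.480 and 0.529). This rule misses HCT116 oxpl-R comparisons with a low coefficient for number 1 only, namely Oxpl (0.084, 0.465 and 0.547) and E1A (0.028, 0.508 and 0.678). In HCT116 cells the coefficients were below 0 for Oxpl (−0.179, −0.119 and −0.266) and E1A (−0.164, −0.144 and −0.227). The labels give a replicate number only. Several comparisons share samples, and limits from counts cover counting error only.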

Additional observations from a re-analysis of the deposited data

How the results depend on the processing

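The 5 members higher in HCT116 oxpl-R cells under Oxpl, with E1A and with both, and the 0 members called for E1A, had the same counts under all 14 alternatives, leaving out each sample included. For Oxpl in HCT116 oxpl-R cells the count of 1 became 0 with RLE size factors, with only the groups compared and with edgeR on the second table (chosen after seeing the data), and ranged from 0 to 1 when single samples were left out. For Oxpl with E1A in these cells the count of 0 became 1 with filterByExpr, DESeq2, both limma fits, edgeR on the second table (there APOBEC3D, otherwise APOBEC3C) and the replicate block. The block changed no other count. The interaction of line and Oxpl became 1 with filterByExpr and DESeq2, and ranged from 0 to 1 without single samples. Counts ranged from 2 to 4 for Oxpl in HCT116 cells and from 1 to 2 for Oxpl with E1A in HCT116 cells. The cause of these shifts was not tested. The untreated median log2FC of 2.14, which includes APOBEC3A, was 2.02 with edgeR on the second table. For APOBEC3B with E1A and Oxpl, the line difference of −0.04 was 0.034 and 0.046 without oxpl-R replicate 1 or 2 of that group, and without single samples it ran from −0.30 to 0.046. Over the log2FC values of members that were compared under the alternatives, which leave out APOBEC3A and most values without a call, 499 kept direction and side of the threshold, 23 lost a call, 12 gained one and 2 changed sign. RLE size factors moved the share of higher calls of the interaction of line and Oxpl from 31.1% to 20.8%, and with E1A from 78.9% to 58.3%, where the median over expressed genes moved from 0.08 to −0.04. At 0 to 119 counts, APOBEC3A, APOBEC3D, APOBEC3G and APOBEC3H in HCT116 cells are the least precise values.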
